A study of Mus musculus with 6 samples.

Results

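A set of 10 genes by which tissue macrophages are commonly recognised was followed in brown adipose tissue of mice with and without miR-22. They were Adgre1, Cd68, Csf1r, Mrc1, Lyz2, Cd163, Clec10a, Itgax, Trem2 and Cd14, out of 23462 genes that the probes of the array could be assigned to. They were chosen by name from a list of known markers, with earlier results of these data known. Each array probe whose RefSeq accession led to one of these symbols was taken. This gave 17 probes, with 2 probes for each of 7 genes and 1 probe each for Mrc1, Lyz2 and Trem2. Total RNA of brown adipose tissue from male mice at 8 weeks of age was labelled with a single dye and hybridised to Agilent Mouse (V2) Gene Expression arrays, 1 array per mouse. The tissue came from 3 wild-type (WT) mice, called WT1 to WT3 here, and 3 miR-22 knockout (KO) mice, called KO1 to KO3. The KO mice lacked miR-22 in all tissues, so a difference in the macrophage genes cannot be assigned to the adipocytes or to the macrophages themselves. The study's methods describe RNA taken from the tissue itself, whereas the design text of the series speaks of a flow separation into TRIzol, and the sources used here do not settle which. The RNA held transcripts of brown adipocytes, skeletal muscle and leukocytes, as given below. In RNA of mixed cells, fewer macrophages and less RNA of a gene per macrophage cannot be told apart.

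Macrophages take up dying cells, lipid and debris, and in adipose tissue they lie among the adipocytes and around blood vessels and nerves. Their growth and survival depend on the receptor Csf1r and its ligands Csf1 and Il34, and their myeloid gene program depends on the transcription factor PU.1, which binds purine-rich DNA with a GGAA core. The markers sample different sides of the cell: Adgre1 and Cd68 are general macrophage markers, Mrc1 (CD206), Cd163 and Clec10a are endocytic receptors usually linked to resident or alternatively activated cells, Itgax (CD11c) and Trem2 are linked to activated and lipid-laden cells, and Lyz2 and Cd14 are shared with monocytes and, for Lyz2, neutrophils.

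The sequences below show what the KO mice lack and what the array cannot read. miR-22 is a short RNA that pairs with messenger RNAs through its seed, bases 2 to 8, shown in capitals, and the messenger RNA array holds no value for it. The mature strands are those of RefSeq on GRCm38.p6.
miR-22-3p, chr11:75463772-75463793, strand +: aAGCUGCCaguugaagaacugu
miR-22-5p, chr11:75463734-75463755, strand +: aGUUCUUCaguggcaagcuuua
The array does carry a probe for Mir22hg, the host transcript of miR-22. Its scaled log2 signal was 1.20, 1.69 and 1.22 in WT1 to WT3 and 2.02, 2.11 and 2.23 in KO1 to KO3, higher in every KO mouse. Where the probe lies relative to the deleted stretch is not given in the sources used here, so it does not check the genotypes. Cd68 and Clec10a lie on chromosome 11, as Mir22 does, and the other 8 genes lie on other chromosomes.

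The promoters of 4 markers are shown because these genes differ in how they varied between mice and are all expressed under the myeloid program. Promoter sequence from RefSeq on GRCm38.p6 was at hand for 6 of the 10 genes (Cd68, Mrc1, Lyz2, Cd163, Itgax and Trem2). Each line below gives the 250 bases before the annotated start, 5' to 3' in the direction of the gene, with every GAGGAA, or TTCCTC on the other strand, in capitals.
Cd68, chr11:69666171-69666420, strand -: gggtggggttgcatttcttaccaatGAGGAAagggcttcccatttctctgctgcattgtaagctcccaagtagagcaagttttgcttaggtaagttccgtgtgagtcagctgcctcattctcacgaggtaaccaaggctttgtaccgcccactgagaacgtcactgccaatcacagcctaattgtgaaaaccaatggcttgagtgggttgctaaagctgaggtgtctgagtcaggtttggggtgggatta
Mrc1, chr2:14229164-14229413, strand +: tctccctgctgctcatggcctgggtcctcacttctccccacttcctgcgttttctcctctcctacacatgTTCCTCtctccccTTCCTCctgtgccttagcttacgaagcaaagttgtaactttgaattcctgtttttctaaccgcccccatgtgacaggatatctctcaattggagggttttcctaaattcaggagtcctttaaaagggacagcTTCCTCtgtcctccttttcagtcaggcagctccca
Itgax, chr7:128129300-128129549, strand +: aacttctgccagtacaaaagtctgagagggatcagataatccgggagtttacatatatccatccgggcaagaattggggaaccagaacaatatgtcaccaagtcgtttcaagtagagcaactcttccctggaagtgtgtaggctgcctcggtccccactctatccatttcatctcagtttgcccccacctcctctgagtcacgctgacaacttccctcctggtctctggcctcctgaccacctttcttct
Trem2, chr17:48346151-48346400, strand +: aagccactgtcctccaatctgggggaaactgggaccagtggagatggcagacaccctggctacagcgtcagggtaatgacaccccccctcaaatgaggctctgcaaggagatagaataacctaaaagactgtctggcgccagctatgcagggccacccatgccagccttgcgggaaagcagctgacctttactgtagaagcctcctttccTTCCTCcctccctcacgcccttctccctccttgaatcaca
GAGGAA is a form of the PU.1 core. It occurred in 3 of the 6 promoters, Cd68, Mrc1 and Trem2, and in 23.3% of all 32851 promoter windows of this length. In Mrc1 it occurred 3 times, starting 180, 167 and 35 bases before the start. In Trem2 it lay 40 bases before the start and in Cd68 225 bases before it. TATAAA, searched on both strands, was in none of the 6, against 12.4% of all windows. The letters describe these windows only and say nothing about binding.

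Signals are given as the log2 of the processed signal minus the 75th percentile of the same array, so that 0 is the level that 1 in 4 spots exceeded. A value of one probe cannot be set against that of another. Spots that the scanner software had marked as uneven or as population outliers were left out of the test and are named where they occur. The limma test took in probes that rose clearly over background in 3 or more of the 6 mice and kept 2 or more unmarked values for WT and for KO. All 10 genes were above background on all 6 arrays with at least 1 probe, 14 of the 17 probes in all. Of these 14, 13 probes of 9 genes were tested, and Lyz2 was left untested because 4 of its 6 spots were marked.

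The arrays lay on a single slide and were not alike in quality. Marked spots made up 17.1% of the spots of WT3 and 15.1% of those of KO1, against 4.87% to 6.12% on the other 4 arrays. KO1 had the fewest spots well above background, 55.8%. The lowest signal of a probe well above background was -4.60 in KO1, against -6.26 to -5.75 in the other mice. WT3 also stood apart in tissue content, with a mean scaled log2 signal over 8 tested skeletal muscle genes of -6.63, against 1.92 and 1.08 in WT1 and WT2 and -0.67, 3.13 and 1.03 in KO1 to KO3. WT3 lay in the slide row of the KO arrays, whereas WT1 and WT2 lay in the other row. The brown adipocyte gene Ucp1, which carries the heat-producing proton leak, gave 5.51, 5.85, 5.53, 5.10, 5.0 and 5.65 in the order WT1 to KO3, well above background in each mouse, but all 6 of its spots were marked. Cidea, a lipid droplet protein of brown adipocytes, was unmarked in WT1, KO2 and KO3 at 4.79, 4.47 and 5.01.

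Across the 10 markers, no general change was detected. At an unadjusted p under 0.05 in limma, 0 of the 13 tested probes were higher in KO, where 9.7% of all 31238 tested probes were. One probe, of Clec10a, was lower in KO, where 6.74% of all tested probes were. After Benjamini-Hochberg adjustment 0 of the 13 passed, where 0.109% of all tested probes did, and the adjusted p-values of the markers ran from 0.29 to 0.98. The mean was higher in KO at 10 of the 13 probes and lower at 3, with a median difference of 0.27 on the log2 scale beside 0.02 over all tested probes. Over the whole array the split of probes past the unadjusted threshold, 3031 higher and 2104 lower in KO, turned to 2031 higher and 3003 lower after quantile normalization.

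**Figure D1:**
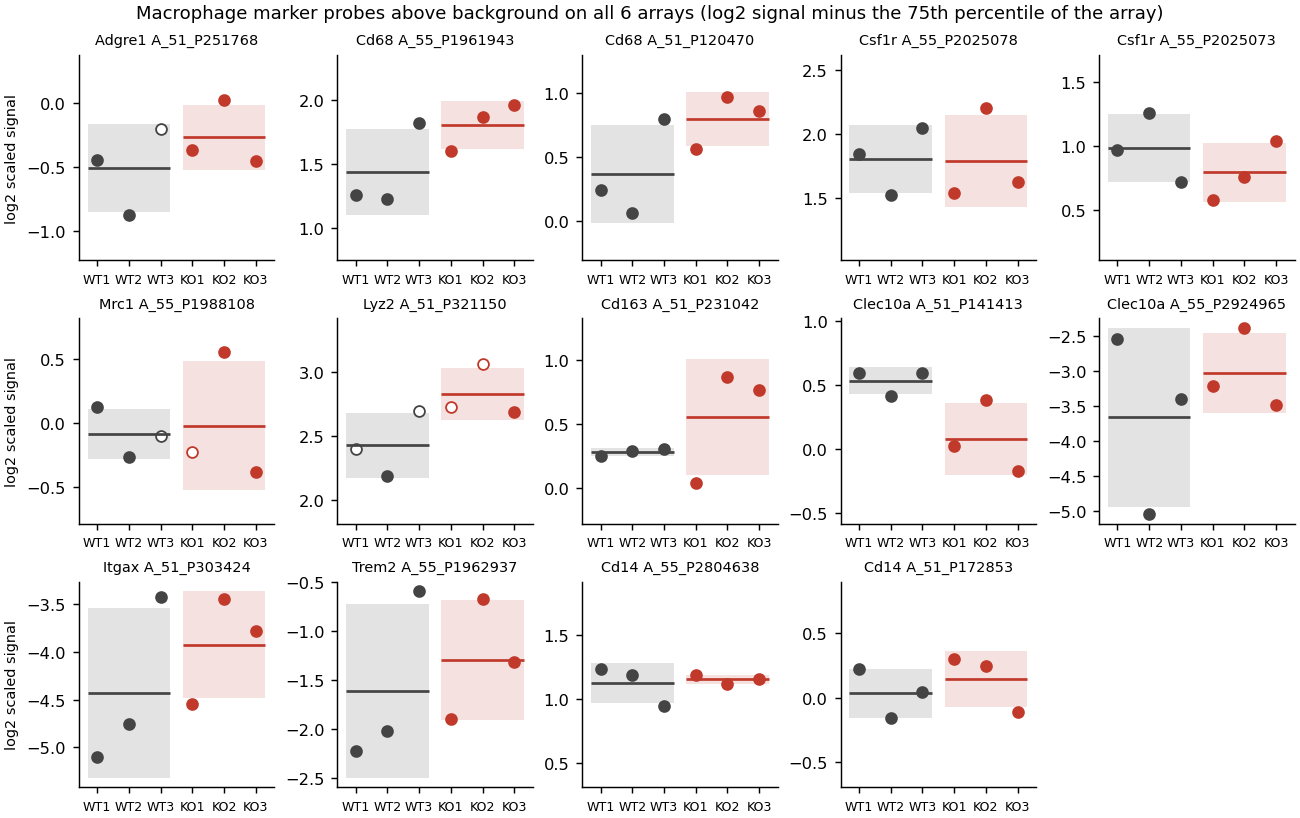
Scaled log2 signal (y axis) of the 14 macrophage marker probes that were above background on all 6 arrays, by mouse (x axis), WT in black and KO in red. Open circles are marked spots, lines are group means and bands 1 SD with marked spots included. The groups overlap at all panels but Clec10a A_51_P141413, where KO is lower.

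The general macrophage markers Adgre1 and Cd68 had higher means in KO, with overlapping groups. Cd68 encodes a lysosomal glycoprotein abundant in macrophages. Its brighter probe, A_55_P1961943, gave 1.26, 1.23 and 1.82 in WT1 to WT3 and 1.60, 1.86 and 1.96 in KO1 to KO3. WT3 lay above KO1, and the other two WT mice lay below all KO mice. The difference was 0.37 on the log2 scale (SE 0.21, 95% interval -0.13 to 0.87, adjusted p = 0.42 in limma). The second probe, A_51_P120470, behaved alike, with 0.24, 0.06 and 0.79 in WT and 0.56, 0.96 and 0.86 in KO, a difference of 0.43 (SE 0.23, adjusted p = 0.40 in limma), which was 0.28 without WT2. Without WT3 the differences were 0.56 and 0.65 (both under the unadjusted threshold of 0.05, adjusted p = 0.31 and 0.28 in limma). With the slide row as a block, a fit that rests on WT3 as the only WT mouse beside the KO mice, they were -0.013 and 0.0022.

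Adgre1 encodes an adhesion-type receptor that is the classical surface marker of mouse macrophages. Its probe A_51_P251768 gave -0.45, -0.88 and -0.20 in WT1 to WT3, the last from a marked spot, and -0.37, 0.02 and -0.45 in KO1 to KO3. KO2 was the highest mouse and WT2 the lowest, and the remaining 4 were close together. The difference was 0.39 on the log2 scale without the marked spot (SE 0.24, 95% interval -0.19 to 0.97, adjusted p = 0.45 in limma) and 0.24 with it. With the marked spot left out it was 0.25 without KO2. The other Adgre1 probe was not well above background in any mouse.

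Csf1r, the receptor for the macrophage growth factors, did not differ detectably at either probe. Probe A_55_P2025078 gave 1.84, 1.52 and 2.04 in WT and 1.54, 2.20 and 1.62 in KO, a log2 difference of -0.01 (95% interval -0.57 to 0.54). Probe A_55_P2025073 gave 0.97, 1.26 and 0.72 in WT and 0.58, 0.76 and 1.04 in KO, a log2 difference of -0.19 (95% interval -0.67 to 0.29). The probes ordered the mice differently: WT2 was the lowest mouse at the first and the highest at the second.

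Cd14, the co-receptor for bacterial lipopolysaccharide on monocytes and macrophages, did not differ detectably either. Probe A_55_P2804638 gave 1.24, 1.19 and 0.95 in WT and 1.19, 1.12 and 1.15 in KO, a log2 difference of 0.03 (95% interval -0.33 to 0.39). Probe A_51_P172853 gave 0.22, -0.16 and 0.04 in WT and 0.30, 0.24 and -0.11 in KO, a log2 difference of 0.11 (95% interval -0.33 to 0.55). The groups overlapped at both probes, and neither interval reached 1.5-fold in either direction.

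Lyz2 encodes lysozyme M, a bacteria-digesting enzyme of myeloid cells. With marked spots kept, it gave 2.40, 2.19 and 2.69 in WT1 to WT3 and 2.73, 3.06 and 2.69 in KO1 to KO3, where only the WT2 and KO3 spots were unmarked. KO3 and WT3 were at the same level to 2 decimals, and the other KO mice lay above all WT mice. The difference was 0.40 on the log2 scale (SE 0.19, 95% interval -0.05 to 0.85, adjusted p = 0.33 in limma). After quantile normalization it was 0.58, under the unadjusted threshold of 0.05 (adjusted p = 0.27 in limma), and with the slide row as a block 0.13 (adjusted p = 0.90 in limma). It ran from 0.28 to 0.53 when single mice were left out, the highest without WT3 and then under the unadjusted threshold. Lyz1, a close paralog whose transcripts could bind the same probe, gave 2.60, 2.65 and 2.12 in WT and 2.68, 2.95 and 2.57 in KO, with 3 marked spots.

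The endocytic receptors did not move as a group. Mrc1, the mannose receptor, gave 0.12, -0.27 and -0.11 in WT and -0.23, 0.55 and -0.39 in KO, with marked spots in WT3 and KO1. KO2 was the highest mouse and KO3 the lowest, so that the KO mice enclosed the WT range. The log2 difference was 0.16 without the marked spots (95% interval -0.79 to 1.1) and 0.06 with them (95% interval -0.57 to 0.70). Cd163, the haptoglobin-haemoglobin scavenger receptor, gave 0.25, 0.28 and 0.30 in WT and 0.03, 0.86 and 0.76 in KO at probe A_51_P231042. The WT mice were nearly equal, with an SD of 0.03, whereas KO2 and KO3 lay above them and KO1 below. The log2 difference was 0.27 (SE 0.24, adjusted p = 0.59 in limma). It was 0.53 without KO1, then under the unadjusted threshold (adjusted p = 0.25 in limma), and 0.12 without KO2 and 0.17 without KO3. The dimmer Cd163 probe, A_55_P2289819, was not well above background in any WT mouse and was so in 2 of the 3 KO mice. Its measured means were -6.35 in WT and -5.35 in KO, and it was not tested under the rule above.

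Clec10a, a galactose-binding lectin of macrophages and dendritic cells, was the only marker past an unadjusted p of 0.05, and its probes disagreed. The brighter probe, A_51_P141413, gave 0.59, 0.41 and 0.60 in WT1 to WT3 and 0.02, 0.38 and -0.17 in KO1 to KO3. All 3 KO mice lay below all WT mice, by only 0.03 between KO2 and WT2. The log2 difference was -0.45 (SE 0.19, 95% interval -0.90 to -0.01), a KO level of 0.730 times the WT level (adjusted p = 0.29 in limma). Among the 11 tested marker probes with 6 unmarked values this was the only one whose groups did not overlap, beside 11.7% of such probes on the array with KO lower and 13.9% with KO higher. The call was lost after quantile normalization (-0.43, adjusted p = 0.33 in limma), in the authors' processed values (-0.43, adjusted p = 0.28 in limma), with no filter on dim probes, with the slide row as a block and when any single mouse other than KO2 was left out (-0.33 to -0.52). The dimmer probe, A_55_P2924965, gave -2.53, -5.05 and -3.40 in WT and -3.20, -2.38 and -3.48 in KO, a log2 difference of 0.64 (SE 0.62, adjusted p = 0.63 in limma), which was -0.052 without WT2.

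Mgl2, a close paralog of Clec10a that also lies on chromosome 11, showed the same kind of disagreement. Its brighter probe gave 3.79, 4.19 and 3.89 in WT and 3.41, 3.34 and 3.80 in KO, a log2 difference of -0.45 (SE 0.22, adjusted p = 0.35 in limma). Its dimmer probe gave -1.46, -0.92 and -0.56 in WT and -0.14, -0.08 and -0.15 in KO, a log2 difference of 0.86 (SE 0.24, adjusted p = 0.16 in limma). At both genes, then, the brighter probe had the lower KO mean and the dimmer probe the higher one. Which transcripts each probe binds was not tested.

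Itgax and Trem2 varied most between mice of the same genotype among the tested probes with 6 unmarked values, apart from the dimmer Clec10a probe. Itgax, the integrin chain CD11c, gave -5.11, -4.76 and -3.42 in WT1 to WT3 and -4.55, -3.45 and -3.79 in KO1 to KO3 at its tested probe. The other Itgax probe was not well above background in any mouse and was not tested. Trem2, a lipid-sensing receptor, gave -2.22, -2.01 and -0.59 in WT and -1.90, -0.67 and -1.32 in KO. At both genes WT3 was the highest of all 6 mice, KO2 the next, and WT1 the lowest. The log2 differences were 0.50 for Itgax (SE 0.47, 95% interval -0.61 to 1.62) and 0.31 for Trem2 (SE 0.48, 95% interval -0.83 to 1.45). Without WT3 they were 1.01, under the unadjusted threshold (adjusted p = 0.30 in limma), and 0.82 (adjusted p = 0.39 in limma). In the other direction, Itgax was 0.17 without WT1 and 0.26 without KO2, and Trem2 0.0073 without WT1 and -0.00015 without KO2. With the slide row as a block they were -0.50 and -0.70, so their direction rested on whether WT1 and WT2 or WT3 stood for the WT. WT3 is the mouse with little skeletal muscle signal and the most marked spots, and the part these play was not tested.

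**Figure D2:**
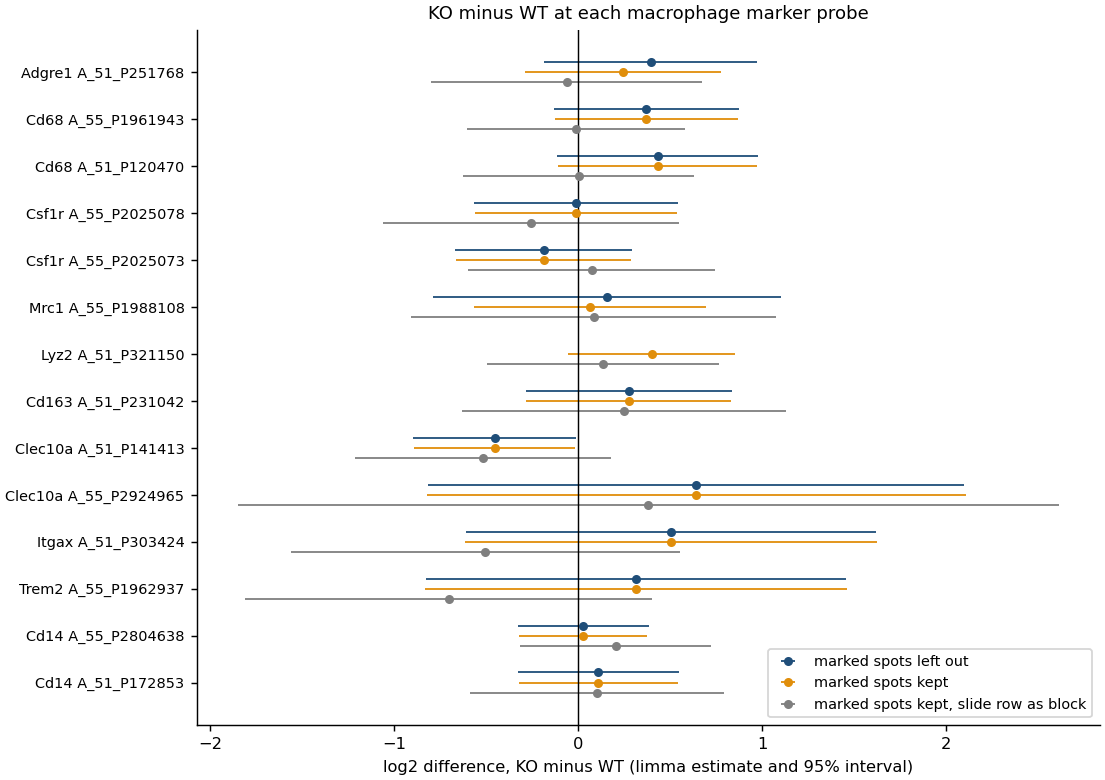
Log2 difference, KO minus WT (x axis), at the same 14 probes (y axis), with limma estimates and 95% intervals for marked spots left out (blue), marked spots kept (orange) and marked spots kept with the slide row as a block (grey). The only intervals that exclude 0 are the blue and orange ones of Clec10a A_51_P141413. The grey estimates of Itgax and Trem2 lie on the other side of 0.

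The mice did not order themselves by genotype across the markers. WT3 was the highest WT mouse at 8 of the 13 tested probes, and KO2 the highest KO mouse at 9 of 13. Averaged over the 7 genes with no marked spot, brightest probe each, the deviations from the mean of the gene were -0.26, -0.26 and 0.29 in WT1 to WT3 and -0.24, 0.38 and 0.08 in KO1 to KO3 on the log2 scale. In this mean KO1 was close to WT1 and WT2, and WT3 close to KO2. The genes were not scaled to equal spread, and Itgax and Trem2 weighed most. They gave 0.76 and 0.86 in WT3 and 0.73 and 0.78 in KO2. The remaining genes ran from -0.19 to 0.29 in WT3 and from -0.02 to 0.45 in KO2. Among 11566 other genes with no marked spot, those with the nearest profile were Gm3002, Oas1c, Ptgr1, Plcxd3 and Ccdc106, with root mean square differences of 0.07 to 0.10 over the 6 mice. None of the 5 belongs to the macrophage lists used here.

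**Figure D3:**
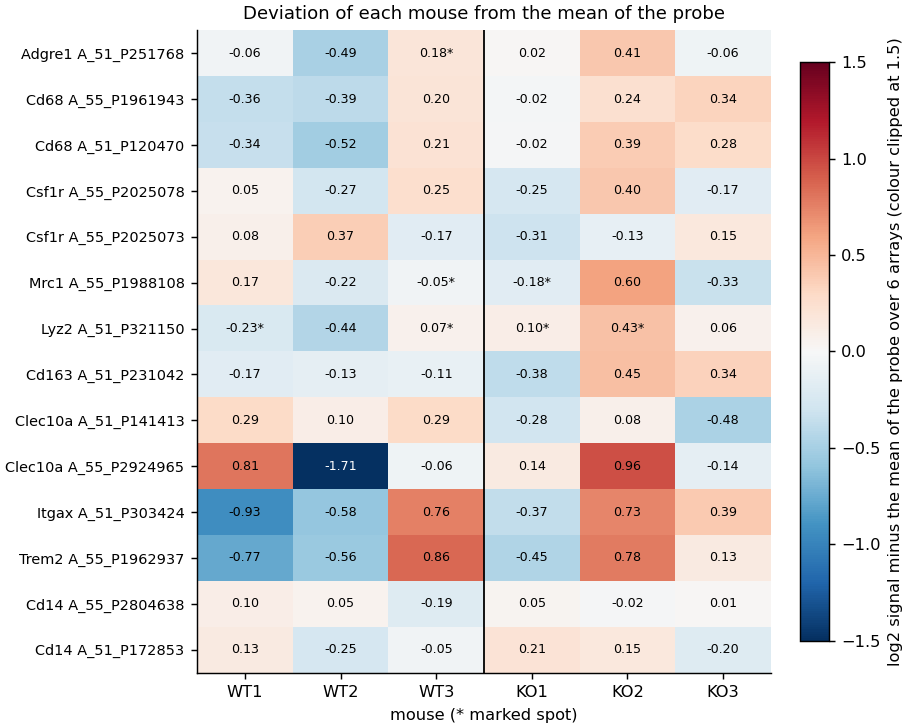
Deviation of the log2 signal of each mouse (x axis) from the 6-array mean of the probe (rows), red above and blue below, with marked spots starred. WT3 and KO2 are red at Itgax and Trem2 (0.76 to 0.86 and 0.73 to 0.78), whereas WT1 and WT2 are blue.

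The wider macrophage gene lists gave a more uneven picture than the 10 markers. They held 101 genes, chosen with earlier results of these data known, of which 78 were tested at their brightest usable probe. At an unadjusted p under 0.05 in limma, 20 were higher and 2 lower in KO, beside 9.23% higher and 7.39% lower among all 14711 tested genes. None passed after adjustment. Dim genes leaned towards KO on these arrays as a whole: among tested genes with a mean scaled log2 signal under -2, 15.5% were higher in KO with a median difference of 0.16, against 5.62% and a median of -0.11 among brighter genes. Over all tested genes the median was -0.03. The part that the higher background limit of KO1 plays in the lean of dim genes was not tested.

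**Figure D4:**
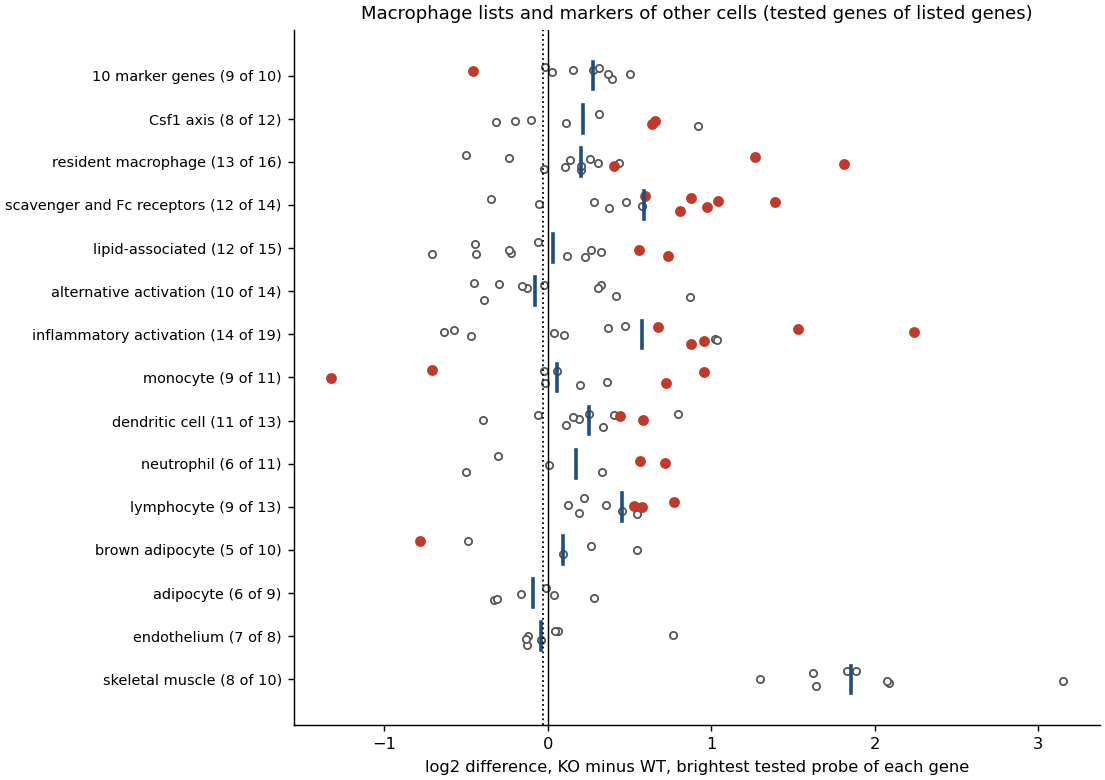
Log2 difference, KO minus WT (x axis), of each tested gene in the macrophage lists and in lists for other cells (y axis, with tested of listed genes). Red points had an unadjusted p under 0.05 in limma, blue bars are list medians, and the dotted line is the median of all tested genes. The scavenger and inflammatory lists have the highest macrophage medians, 0.59 and 0.57, and the muscle list, at 1.86, has no red point.

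The scavenger and Fc receptor list held the most such genes. Of its 12 tested genes, 6 were higher in KO (Fcgr1, Clec7a, Cd300a, Msr1, Marco and Fcgr4), none was lower, and the median difference was 0.59. Fcgr1, the high-affinity receptor for IgG on macrophages and monocytes, gave -2.03, -2.07 and -1.99 in WT and -0.98, -0.82 and -1.16 in KO. Each WT mouse lay within 0.1 of the others and all KO mice lay well above, a 2.06-fold difference (log2 1.04, SE 0.16, adjusted p = 0.07 in limma). The difference was 1.0 with the slide row as a block, still under the unadjusted threshold (adjusted p = 0.45 in limma), and stayed between 0.96 and 1.13 when single mice were left out.

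Clec7a (Dectin-1), a receptor for fungal glucans, gave -5.57, -5.49 and -5.29 in WT and -4.78, -4.44 and -4.71 in KO, a log2 difference of 0.81 (SE 0.17, adjusted p = 0.11 in limma). Its KO1 spot was not well above background. Cd300a, an inhibitory receptor that binds lipids of dying cells, gave -3.20, -3.26 and -3.19 in WT and -2.69, -2.59 and -2.59 in KO, a log2 difference of 0.60 (SE 0.14, adjusted p = 0.12 in limma). At both genes the groups did not overlap. Msr1, the class A scavenger receptor, was named after its values were seen: its 2 probes gave log2 differences of 1.39 and 1.13 (adjusted p = 0.12 and 0.15 in limma), with no overlap at either. Of the 12 tested genes, 5 had a mean signal under -2, where calls towards KO were common over the whole array. These 5 were Clec7a, Cd300a, Msr1, Marco and Fcgr4, so Fcgr1 was the only brighter gene of the list that was called. After quantile normalization, which turned the split of the array towards WT, the same 6 genes were past the threshold with a list median of 0.51. With the slide row as a block 3 of 11 were (Fcgr1, Clec7a and Cd300a).

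The growth factor axis pointed to a ligand and a transcription factor. Il34, a ligand of Csf1r that is also made outside the myeloid lineage, gave -1.13, -0.93 and -0.93 in WT and -0.32, -0.37 and -0.33 in KO at its brighter probe. It gave -2.50, -2.62 and -2.53 in WT and -1.87, -1.70 and -1.75 in KO at the other. The KO mice lay above all WT mice at both probes, with log2 differences of 0.66 (SE 0.14, adjusted p = 0.11 in limma) and 0.77 (SE 0.14, adjusted p = 0.09 in limma). Irf8, a transcription factor of monocyte and macrophage development, gave -1.52, -1.36 and -1.43 in WT and -0.89, -0.66 and -0.85 in KO, a log2 difference of 0.64 (SE 0.15, adjusted p = 0.13 in limma). Csf1, the other ligand, had a log2 difference of 0.32 at its brightest probe (SE 0.22, adjusted p = 0.52 in limma). In all 2 of 8 tested genes of this list were higher and none lower, with a median of 0.21, while the receptor itself had the values given above.

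Genes of resident tissue macrophages divided. Of 13 tested, 3 were higher in KO (Cx3cr1, Vsig4 and C1qb) and none lower, with a median of 0.21. Cx3cr1, the fractalkine receptor, gave -3.51, -2.96 and -2.98 in WT and -2.49, -1.30 and -1.85 in KO, a log2 difference of 1.27 (SE 0.32, adjusted p = 0.14 in limma). Its second probe gave -6.18, -5.74 and -5.65 in WT and -4.52, -3.34 and -3.82 in KO, a log2 difference of 1.97 (SE 0.32, adjusted p = 0.08 in limma). At this probe WT1, WT3 and KO1 were close to the lowest signal well above background on their arrays (-6.26, -5.75 and -4.60), which limits the size of the difference. C1qb, a chain of complement C1q, gave 1.42, 1.52 and 1.76 in WT and 2.02, 1.91 and 1.99 in KO, a log2 difference of 0.41 (SE 0.16, adjusted p = 0.26 in limma), but its partner chains did not pass, with 0.10 for C1qa and 0.21 for C1qc. C1qb itself passed in 1 of the 6 fits that left out a single mouse. Vsig4, a complement receptor, was well above background in only 1 WT and 2 KO mice, so the size of its difference was not measured. With the slide row as a block none of these 3 was past the threshold at its brightest tested probe. The second Cx3cr1 probe still was, with a log2 difference of 1.76 (adjusted p = 0.47 in limma). At the brightest probes F13a1 was higher in their place with the row block. Fcrls, an Fc receptor-like gene named after its values were seen, was -0.50 here and past the threshold, lower in KO, after quantile normalization (-0.62), with the row block (-0.76) and in the authors' processed values.

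Among inflammatory genes, 5 of 14 tested were higher in KO and none lower, with a median of 0.57. Cd86, a co-stimulatory ligand of antigen-presenting cells, gave -3.29, -3.35 and -3.61 in WT and -2.54, -2.41 and -2.43 in KO at its brightest probe, a log2 difference of 0.96 (SE 0.16, adjusted p = 0.08 in limma). Its other probes gave 0.48 and 0.31 and did not pass. Ccl4, a chemokine, gave -4.13, -4.55 and -5.40 in WT and -1.29, -3.00 and -3.07 in KO, a log2 difference of 2.24 (SE 0.53, adjusted p = 0.13 in limma), with KO1 far above the other KO mice. Tnf, the cytokine, had a log2 difference of 0.87 (SE 0.25, adjusted p = 0.17 in limma). The remaining 2, Cxcl2 and Tlr2, named after their values were seen, had overlapping groups and were lost after quantile normalization. Of the 14 tested genes, 8 had a mean signal under -2. They included Tnf, Ccl4, Cxcl2 and Cd86, so Tlr2 was the only brighter gene of the list that was called.

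**Figure D5:**
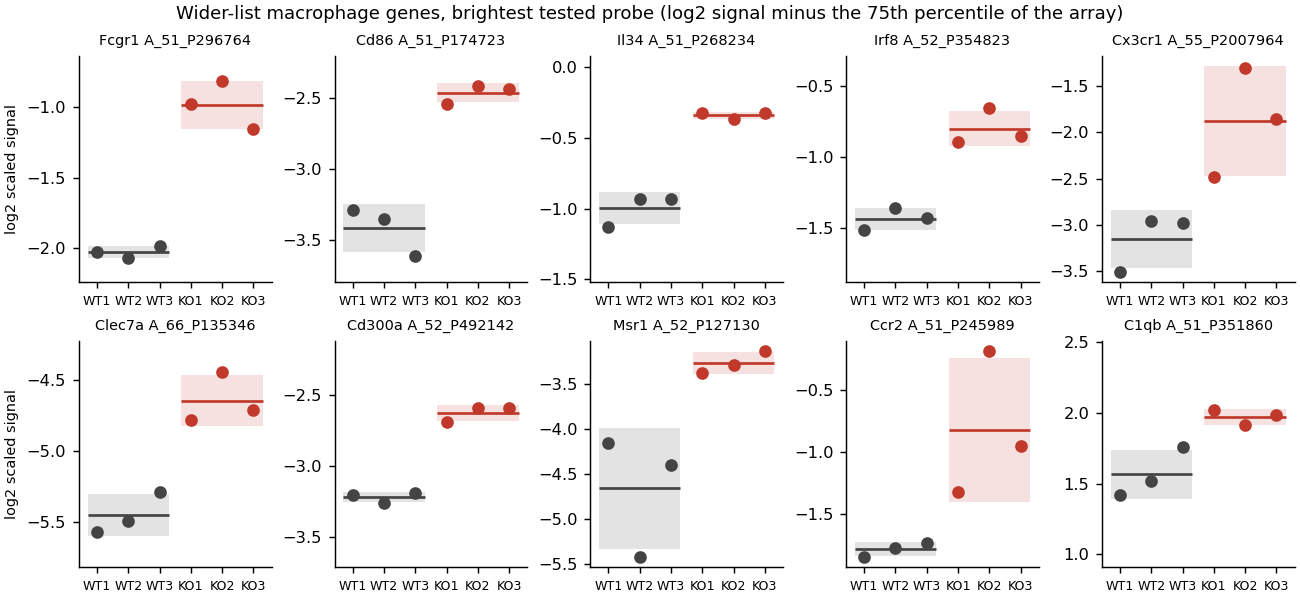
Scaled log2 signal (y axis) by mouse (x axis) of 10 genes from the wider macrophage lists at their brightest tested probe, drawn as in the plot of the markers by mouse. All 3 KO mice lie above all 3 WT mice in each panel, by the least at C1qb (1.91 against 1.76). The panels were picked from genes already called higher in KO. Called genes with overlapping groups, such as Cxcl2 and Tlr2, are not drawn. Of all tested probes with 6 unmarked values, 13.9% had all KO mice above all WT mice.

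The lists for lipid-laden and alternatively activated macrophages had medians near that of the array. Of 12 tested lipid-associated genes, 2 were higher in KO, the cholesterol exporter Abcg1 (log2 0.74, SE 0.26, adjusted p = 0.23 in limma) and the tetraspanin Cd9 (0.56, SE 0.22, adjusted p = 0.27 in limma), and the median was 0.03. Both genes are also made by other cells of the tissue. With the slide row as a block neither passed, the list median was -0.22, and Gpnmb and Spp1, known from lipid-laden macrophages and named after their values were seen, were lower in KO (-2.07 and -2.54, adjusted p = 0.37 and 0.45 in limma). Both were highest in WT3. Of 10 tested genes of alternative activation, none reached an unadjusted p under 0.05 in limma at its brightest tested probe. The median was -0.08. Mgl2 belongs to this list, and its dimmer probe did reach that threshold, as given above. After quantile normalization Il4ra was higher and Arg1 lower at that threshold. The adaptor Tyrobp, which carries the signal of Trem2, gave 1.25, 1.85 and 1.82 in WT and 1.64, 1.93 and 1.72 in KO, a log2 difference of 0.12 (SE 0.21, adjusted p = 0.80 in limma).

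Monocyte genes went both ways, with 2 of 9 tested higher and 2 lower in KO and a median of 0.06. Ccr2, the chemokine receptor by which monocytes leave the marrow, gave -1.84, -1.77 and -1.73 in WT and -1.32, -0.19 and -0.95 in KO, a log2 difference of 0.96 (SE 0.29, adjusted p = 0.18 in limma). Ace was lower (log2 -0.70, SE 0.19, adjusted p = 0.16 in limma). Nr4a1, a nuclear receptor of patrolling monocytes, was lower (log2 -1.33, SE 0.22, adjusted p = 0.10 in limma) with marked spots in WT3 and KO1 left out. With them kept the difference was -0.62 (adjusted p = 0.47 in limma). With the slide row as a block none of the 8 tested genes of this list was past the threshold, with -0.40 for Ace and 0.91 for Ccr2. Which cells of the tissue carried these differences was not tested.

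The lists for other leukocytes leaned the same way in part. Ptprc (CD45), counted in the lymphocyte list, is a pan-leukocyte phosphatase and so does not set other leukocytes apart from macrophages. Its brighter probe gave -1.46, -1.01 and -1.15 in WT and -0.80, -0.54 and -0.70 in KO, a log2 difference of 0.53 (SE 0.18, adjusted p = 0.21 in limma). Its dimmer probe gave 0.28 (SE 0.53, adjusted p = 0.81 in limma), with overlapping groups. Of 9 tested lymphocyte genes, 3 were higher in KO (Ptprc, Cd4 and Ncr1), none lower, with a median of 0.45, and the mean signal of the list ran from -3.93 to -3.27 in WT and from -3.21 to -3.07 in KO. Of 6 neutrophil genes, Lcn2 and Retnlg were higher (median 0.17), and of 11 dendritic cell genes Ccr7 and Batf3 (median 0.25), with none lower in either list. After quantile normalization Ccr7, Batf3, Retnlg and Ncr1 were no longer past the threshold while H2-Ab1 was. With the slide row as a block no lymphocyte or dendritic cell gene was past it at its brightest tested probe. The dimmer Ptprc probe was, with a log2 difference of 1.40, and it was well above background in only 2 WT and 2 KO mice. Endothelial genes had a median of -0.04 over 7 tested genes and general adipocyte genes -0.09 over 6, with none past the threshold in limma. With marked spots kept the general adipocyte median was -0.29 over 9. Of 5 tested brown adipocyte genes, Cox7a1 of the respiratory chain was lower in KO (log2 -0.78, adjusted p = 0.28 in limma), and the median was 0.10. At the probe counted, Cox7a1 did not pass after quantile normalization, in the authors' processed values or with marked spots kept. Plin5, named after its values were seen, was past the threshold and higher in KO after quantile normalization and in the authors' processed values. With marked spots kept, all 10 were tested, Ppargc1a and Adrb3 were lower, 7 had lower means in KO, and the median was -0.42. After quantile normalization as well, the median was -0.13 and Plin5 was again higher. The probe counted for Ppargc1a and for Adrb3 then did not pass, although the other Ppargc1a probe was lower (-0.50). The part of adipocytes and of other leukocytes in the macrophage results was not tested.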

How the data were processed

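Total RNA of brown adipose tissue from 3 WT and 3 KO mice was hybridised to 1-colour arrays of 62976 spots. The deposited scanner files hold intensity values that the authors obtained with Agilent Feature Extraction, whose processed signal is background-corrected. The file headers give version 11.5.1.1 and the submitters' processing notes 10.7. A deposited table of log2 values for 27497 probes, made by the authors and already filtered, served as an alternative. The genotypes came from the labels, which pair no mice. Each array carries a sample number of its own, taken here as 1 mouse, and 3 arrays a group limit the precision.

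The log2 processed signal minus the 75th percentile of each array was used. Control spots and marked spots were left out, and spots of one probe were averaged. Of 56605 probes, 33767 (59.7%) were named through RefSeq accessions. The 75th percentile of intensity ran from 1435 to 2633 and 55.8% to 66.5% of spots were well above background, with none saturated. KO and WT were compared with limma 3.58.1 in R 4.3.3 (lmFit and eBayes, two-sided, all 6 arrays, no covariate), with Benjamini-Hochberg adjustment over all tested probes, and the code was tested on simulated data. Results across lists use the brightest tested probe of each gene. The study's methods name SAM at an unadjusted p under 0.05, which was run as an alternative beside other scalings, filters, background correction, a plain t-test, a trend and robust fit, probe summaries, the slide row as a block and leaving out each mouse. Keeping marked spots together with quantile normalization, with the row block or without single mice was added after seeing the data.

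The 10 markers, the wider lists and the rules for naming genes were chosen with earlier results of these data known. All markers are described at every probe. In each list up to 3 genes in each direction with the smallest unadjusted p under 0.05 are named, with defining markers of the tissue and of paralogs, and the 5 genes with the nearest profile. Mir22hg was added as the host transcript. For 1 gene of the monocyte list the values are not reported here. Gene symbols of closely related genes (Lyz1 and Lyz2, Mgl2 and Clec10a) may share signal.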

Additional observations from a re-analysis of the deposited data

How the results depend on the processing

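No marker passed after adjustment under any alternative run. The number of marker probes with an unadjusted p under 0.05, 1 of 13 here, was 0 after quantile normalization, with SAM, with a plain t-test, with the slide row as a block (marked spots left out or kept) and with the mean of the probes of a gene, and 2 with no filter on dim probes. The 2 were the dimmer probes of Adgre1 and Cd163, and the 1 in the authors' processed values was the dimmer Cd163 probe, not Clec10a. It ran from 0 to 3 when single mice were left out, with 3 without WT3. Of all tested probes, 5135 were under that threshold, against 2254 with the row block, 2805 with the row block and marked spots kept, 2773 with 1 probe per gene and 2422 with probe means, the last pair testing fewer features. Quantile scaling and scaling to the median of detected probes moved the median of all probes by less than 0.1 on the log2 scale.

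With the row block, differences changed sign at Cd68 A_55_P1961943 (-0.013, with marked spots left out or kept), Csf1r A_55_P2025073 (0.072, likewise), Itgax A_51_P303424 (-0.50) and Trem2 (-0.70), and with marked spots kept as well at Adgre1 (-0.063). Csf1r A_55_P2025078 turned to 0.092 after quantile normalization (marked spots left out or kept) and in the authors' processed values, to 0.041 after normexp correction, and ran from -0.22 to 0.11 without single mice. Cd14 A_55_P2804638 was -0.00054 when arrays were scaled to the median of detected probes and ran from -0.060 to 0.083 without single mice. Without single mice Trem2 ran from -0.00015 to 0.82 and the dimmer Clec10a probe from -0.052 to 1.20. The causes were not tested beyond these values. No paired analysis was possible because the labels give the groups no shared replicate numbers. Over the wider macrophage lists 20 genes were higher and 2 lower in KO, against 12 and 3 with the row block and 17 and 4 after quantile normalization. By list, the inflammatory count of 5 was 3 after quantile normalization, without WT3 and without KO1, the lipid-associated count of 2 was 0 without WT2 and with the row block, where 2 were lower, and the scavenger count of 6 stayed at 6 or 7 without single mice and was 3 with the row block. Probes past the adjusted threshold numbered 34, against 0 with SAM, 2 with a plain t-test, 234 with probes above background on all 6 arrays and 349 with the trend and robust fit, and the other alternatives gave 6 to 102. The higher and lower calls over all probes were 1666 and 2324 after normexp correction and 1953 and 3076 in the authors' processed values.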
